A study of Mus musculus with 24 samples.

Results

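The genes described are 9 that store, move or sense iron: Fth1, Ftl1, Tfrc, Slc40a1, Slc11a2, Hmox1, Ncoa4, Ireb2 and Trf. They were taken from the 63862 genes of the expression tables, by matching each symbol to 1 Ensembl identifier, and all 9 were listed in every library. They were chosen by the FPKM values of Fth1, which held the highest level of any gene in 1 library of the series, the day 14 library numbered 2. For that reason the Fth1 difference at day 14 is given as a description, and a test of it is given only for a fit without that library.

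RNA sequencing was carried out on mouse lacrimal gland (LG), which secretes the watery part of tears, and on lacrimal gland stem cells (LGSCs) grown from it. LGSCs came from C57BL/6 mice aged 6 to 8 weeks and were grown as spheres in Matrigel, in a serum-free 3D medium with EGF, FGF10, Wnt3A and the ROCK inhibitor Y-27632. The passage 2 (P2) LGSCs were sampled on culture days 5 (2 libraries), 7, 10 and 14 (3 libraries per day), with day 14 being the prolonged culture left to differentiate without direction. Whole gland was sampled from adults, from embryonic days E17.5 and E19.5, with 3 libraries each, and 1 further LGSC library was made at passage 10 (P10) on day 7. All groups are wild type, so each contrast is one of culture time, of age or of culture against tissue. Nothing in the labels says that libraries of a group came from separate cultures or animals, so a p-value measures only the spread between these libraries, which may be technical.

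Cells take up iron that is bound to transferrin (Trf) through the transferrin receptor (Tfrc), move it into the cytosol through the divalent metal transporter DMT1 (Slc11a2), store it inside ferritin shells made of a heavy chain (Fth1) and a light chain (Ftl1), and release the excess through ferroportin (Slc40a1). Heme oxygenase 1 (Hmox1) frees iron from heme, and Ncoa4 carries ferritin to lysosomes so that its iron can be used. Ireb2 encodes iron regulatory protein 2, which binds short stem loops called iron-responsive elements (IREs) when iron is low, blocking translation from the 5′ UTR and protecting the transcript from the 3′ UTR. Much of this control acts on translation, which RNA levels do not report.

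Values are FPKM, which is fragments per kilobase of transcript, relative to the mapped fragments of a library, as the study computed them. Reads recovered from the steps of these values summed to between 6047138 and 9456685 per P2 or tissue library and to 25181779 in the P10 library. In 18 of the 20 P2 and tissue libraries the recovered total was 0.864 to 1.156 times the total implied by the scale of the FPKM values, but it was 2.51 and 2.33 times in adult libraries 1 and 2. The deposited values of these 2 adult libraries are therefore high relative to their own reads. In addition, 5 genes took 49.0%, 48.0% and 20.2% of the reads of adult libraries 1, 2 and 3, against 2.98% to 5.59% elsewhere. Each contrast with adult LG is given below on the deposited scale and again after scaling every library to its own recovered reads.

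Some genes used by nearly every cell were listed at or near 0 in the P2 and tissue libraries. Gapdh was at 0 in all 20 of them, Eef1a1 ranged from 0 to 0.562 FPKM and Polr2a from 0 to 0.0971, whereas the P10 library listed Eef1a1 at 3461 and Polr2a at 33.9. The epithelial genes Epcam and Krt8 were likewise at 0 in all 20, and at 261 and 414 FPKM in P10. A low value in these 20 libraries can thus be a failed estimate. Ftl1, Tfrc, Ncoa4 and Ireb2 were also listed far below their P10 values, so their levels are reported as listed and tests compare only the 20 libraries with each other.

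Of the 9 genes, 5 carried an IRE-like sequence in a UTR of the GENCODE M21 annotation of GRCm38, which is not the build named for the values. The search used the sense strand and a motif of a bulged C, 5 bases of any kind and the loop CAGTGN, with at least 4 of the 5 flanking stem positions paired (G with T allowed). The windows are shown because IREs are the known link between these transcripts and the iron level, with the 6 loop bases CAGTGN in capitals.
Fth1 5′ UTR, chr19:9982732-9982760 (+): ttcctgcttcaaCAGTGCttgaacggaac
Ftl1 5′ UTR, chr7:45459779-45459807 (−): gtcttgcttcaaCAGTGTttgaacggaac
Slc40a1 5′ UTR, chr1:45925465-45925493 (−): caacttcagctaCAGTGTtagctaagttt
Tfrc 3′ UTR, chr16:32631219-32631247 (+): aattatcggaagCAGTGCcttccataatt
Tfrc 3′ UTR, chr16:32631598-32631626 (+): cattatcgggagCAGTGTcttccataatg
Tfrc 3′ UTR, chr16:32631663-32631691 (+): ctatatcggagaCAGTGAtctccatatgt
Tfrc 3′ UTR, chr16:32631710-32631738 (+): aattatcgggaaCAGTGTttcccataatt
Slc11a2 3′ UTR, chr15:100395153-100395181 (−): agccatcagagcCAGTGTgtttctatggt

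The matches of both ferritin chains and of ferroportin lay in the 5′ UTR, and those of the transferrin receptor and DMT1 in the 3′ UTR. The Fth1 match was in 4 of its 5 coding transcripts, the Ftl1 match in 1 of 2, the Slc40a1 match in 1 of 4 and the Slc11a2 match in 1 of 6. The 4 Tfrc matches were all in 1 of its 3 coding transcripts. Among 21866 protein-coding genes, with 1 transcript each, 0.544% had such a match in the 5′ UTR and 3.3% in the 3′ UTR. The 9 genes were searched in all their coding transcripts, so their count and these shares are not like for like. No match was found in Hmox1, Ncoa4, Ireb2 or Trf. The values are per gene, so they do not separate transcripts with the element from those without it.

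**Figure D1:**
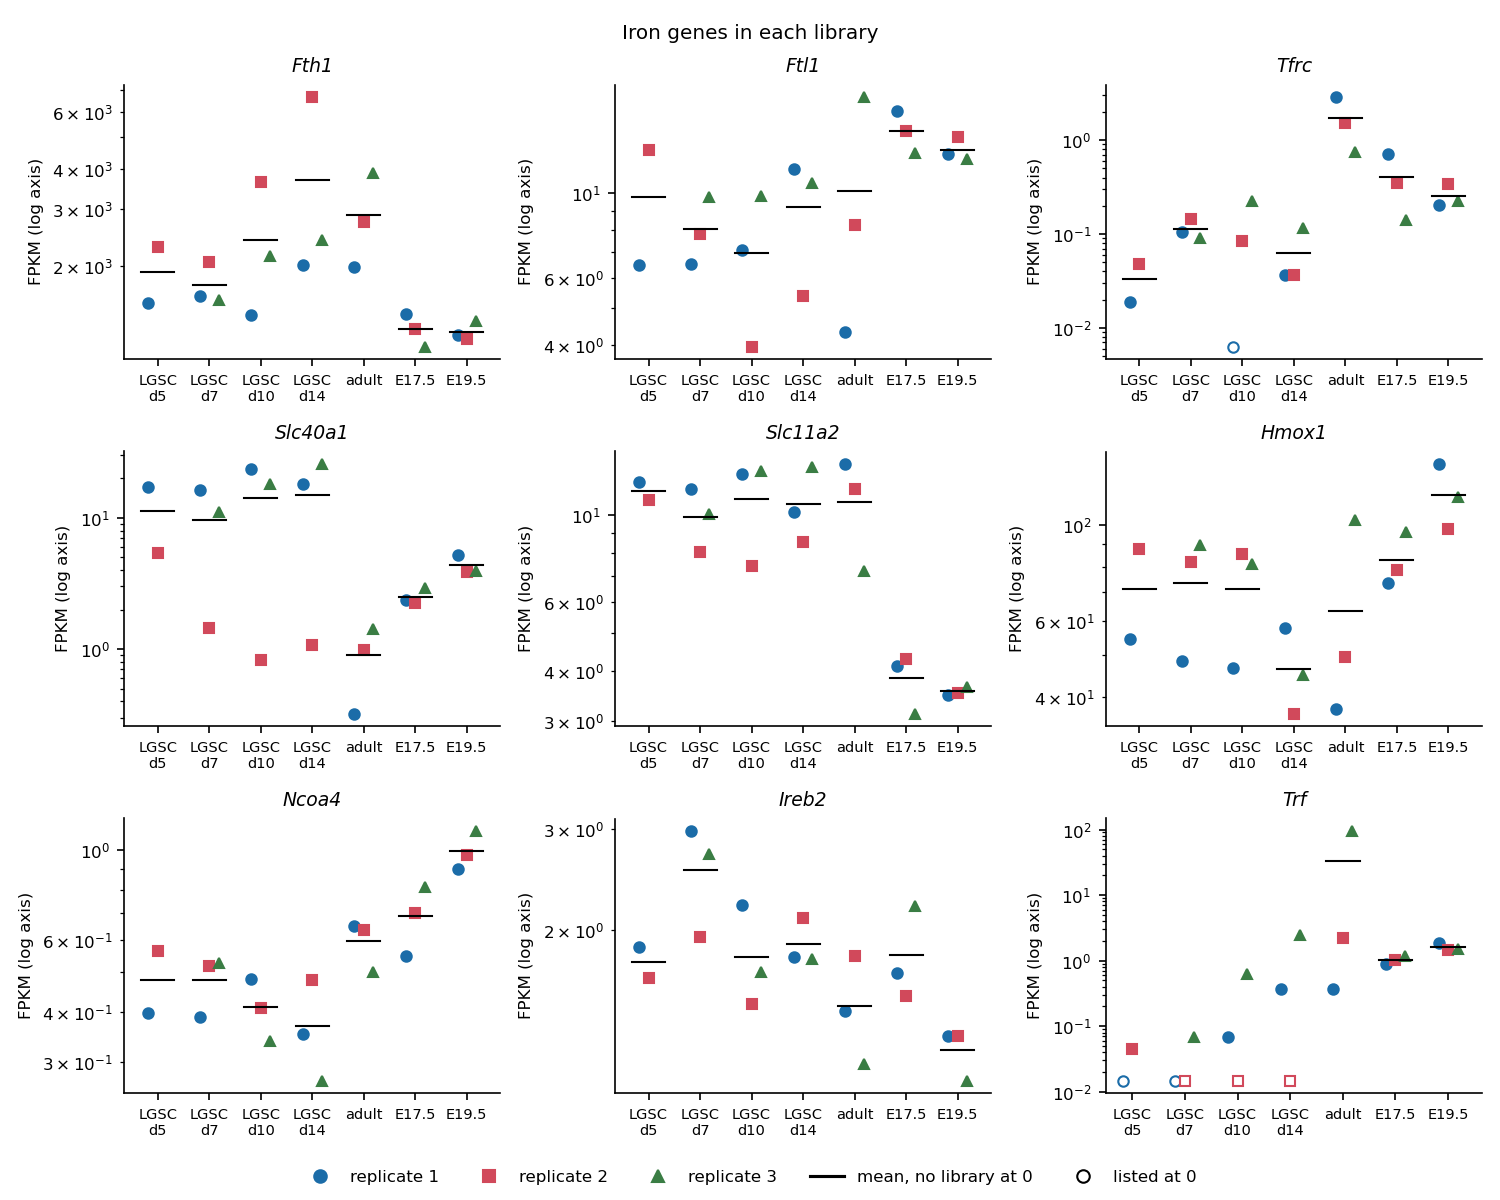
FPKM of each of the 9 genes in every P2 LGSC and tissue library, on a log axis, with 1 point per library. Shape and colour give the replicate number, and open points below the lowest positive value are libraries listed at 0. Fth1 sits above 1000 FPKM everywhere and peaks at 6676 in day 14 library 2, while Slc40a1 is below 6 FPKM in every LGSC library numbered 2 and between 11.1 and 25.7 in the others.

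Fth1 (chr19:9980598-9985098, + strand) was by far the most abundant of the 9. In LGSCs its values were 1535 and 2280 FPKM on day 5, 1606, 2050 and 1563 on day 7, 1411, 3642 and 2140 on day 10, and 2013, 6676 and 2411 on day 14. In gland they were 1975, 2730 and 3886 in adults, 1413, 1270 and 1123 at E17.5, and 1218, 1184 and 1345 at E19.5. The 6 embryonic libraries were at or near the bottom, with day 10 library 1 among them, and at each culture day the library numbered 2 was the highest. In order of group mean, E19.5 (1249 ± 85.2, SD, n = 3) and E17.5 (1268 ± 145) came lowest and overlapped, day 7 (1739.5 ± 270) and day 5 (1907.5, n = 2) followed, and day 10 (2398 ± 1138), adult (2864 ± 963) and day 14 (3700.0 ± 2585) came highest and overlapped each other.

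The value that picked the set was 6676 FPKM in day 14 library 2, where Fth1 ranked 1 of all genes and the next gene was Fau at 2812. Fth1 ranked 10 in day 14 library 1, whose leading genes were Spp1 (3416), Rps2 (3219) and Krt17 (3079), and 5 in day 14 library 3, which was led by Krt17 (3011). As a share of recovered reads, Fth1 took 2.67% in day 14 library 2, 1.25% in adult library 3, 1.22% in day 10 library 2 and 0.273% to 0.931% in the other 17. The day 14 peak therefore belonged to 1 of the 3 libraries, and the next highest LGSC value came from the library with the same number at day 10.

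Ftl1 (chr7:45457944-45459884, − strand) was listed far lower, at 6.49 and 13.0 FPKM on day 5, 6.53, 7.83 and 9.75 on day 7, 7.08, 3.97 and 9.83 on day 10, and 11.6, 5.37 and 10.6 on day 14. In gland it was listed at 4.33, 8.24 and 17.8 FPKM in adults, 16.4, 14.6 and 12.7 at E17.5, and 12.6, 14.0 and 12.3 at E19.5. These rest on 14 to 188 recovered reads. At day 10 and day 14 the library numbered 2, with the most Fth1, had the least Ftl1. Processed copies of the chains share sequence with them, and the copy Ftl2-ps reached 5.24 FPKM and Fth-ps2 2.42 in the same libraries. Whether reads were split between the parent gene and a copy was not tested, and the Ftl1 level is uncertain.

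The release factor Ncoa4 (chr14:32159865-32179855, + strand) was listed at 0.270 to 0.563 FPKM in LGSCs, 0.652, 0.638 and 0.501 in adult LG, 0.549, 0.699 and 0.814 at E17.5, and 0.899, 0.974 and 1.12 at E19.5. All these values come from 7 to 39 reads. The E19.5 libraries were above all others.

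Tfrc (chr16:32608920-32632794, + strand), the main receptor for iron-loaded transferrin, was listed at 0 to 0.224 FPKM in the 11 LGSC libraries, from at most 12 reads each. In adult LG it was at 2.88, 1.53 and 0.742 FPKM, at E17.5 at 0.707, 0.352 and 0.141, and at E19.5 at 0.203, 0.342 and 0.227. On this deposited scale the 3 adult libraries lay above all others, the highest of which was 0.707 at E17.5. Scaled to own recovered reads, adult libraries 2 and 3 were at 0.656 and 0.688, below E17.5 library 1 at 0.712.

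Trf (chr9:103204001-103230444, − strand), the iron carrier of serum, was listed at 0 in 5 of 11 LGSC libraries and was highest among them in day 14 library 3 at 2.46 FPKM. In gland it was at 0.375, 2.19 and 94.9 FPKM in adults, 0.890, 1.03 and 1.17 at E17.5, and 1.86, 1.44 and 1.50 at E19.5. The value of adult library 3 rests on 2404 reads and stands alone. The hepatocyte markers, which include other serum protein genes, summed to 2.37 to 26.9 FPKM in adult LG and to 0.0951 to 4.29 in LGSCs. In adult LG that sum was mostly Ttr, listed at 1.94 to 26.7 FPKM. Alb, Apoa2 and Serpina1a were at 0 in every adult library, and Apoa1, Ahsg and Fgb did not exceed 0.248 FPKM. The part of these markers in the Trf values was not tested.

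Slc11a2 (chr15:100387898-100425072, − strand) was steady in LGSCs, at 12.1 and 10.9 FPKM on day 5, 11.6, 8.05 and 10.0 on day 7, 12.7, 7.40 and 12.9 on day 10, and 10.1, 8.54 and 13.2 on day 14. Adult LG was in the same range at 13.4, 11.6 and 7.20 FPKM. The embryonic glands were lower, at 4.13, 4.31 and 3.13 at E17.5 and 3.49, 3.54 and 3.65 at E19.5, and none of their libraries reached the lowest LGSC or adult value.

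Slc40a1 (chr1:45908068-45926523, − strand), the iron exporter, split the LGSC libraries by number. It was at 17.0 and 5.44 FPKM on day 5, 16.4, 1.45 and 11.1 on day 7, 23.5, 0.822 and 18.1 on day 10, and 18.1, 1.07 and 25.7 on day 14. In gland it was at 0.322, 0.981 and 1.41 FPKM in adults, 2.37, 2.24 and 2.90 at E17.5, and 5.22, 3.89 and 3.91 at E19.5. The 3 gland groups did not overlap. In LGSCs the libraries numbered 2 ran from 0.822 to 5.44 and those numbered 1 or 3 from 11.1 to 25.7.

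Hmox1 (chr8:75093621-75100589, + strand), the inducible enzyme that opens the heme ring, was at 54.3 and 87.9 FPKM on day 5, 48.3, 81.9 and 89.8 on day 7, 46.7, 85.5 and 80.9 on day 10, and 57.8, 36.6 and 44.9 on day 14. In gland it was at 37.4, 49.5 and 102 FPKM in adults, 73.3, 78.5 and 96.3 at E17.5, and 138, 97.8 and 116 at E19.5. Adult library 3 was above all E17.5 libraries while the other two were below them.

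Ireb2 (chr9:54863789-54912530, + strand) ranged from 1.48 to 2.97 FPKM over the LGSC libraries and was highest in 2 of the 3 day 7 libraries. It was at 1.44, 1.80 and 1.16 FPKM in adults, 1.68, 1.53 and 2.20 at E17.5, and 1.30, 1.30 and 1.09 at E19.5.

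The LGSC library numbered 2 was the highest of its culture day for Fth1 and the lowest for Slc40a1 and Slc11a2, each time. The other members did not keep to 1 end over the days. The epithelial keratin Krt18 was at 130 to 176 FPKM in the libraries numbered 2 and at 689 to 1734 in those numbered 1 or 3. Krt14 (8.18 to 17.8 against 3.35 to 11.9) and Cdh1 (388 to 574 against 553 to 916) overlapped. Krt14 was listed at 7065 FPKM in P10, so its low values here can be failed estimates. Over the 11 LGSC libraries, log2 levels of Slc40a1 and Slc11a2 had a Pearson correlation of 0.919, Fth1 and Slc40a1 one of −0.712, and Fth1 and Slc11a2 one of −0.568. These describe 11 libraries that share their 3 numbers, and they largely set the libraries numbered 2 against the others.

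**Figure D2:**
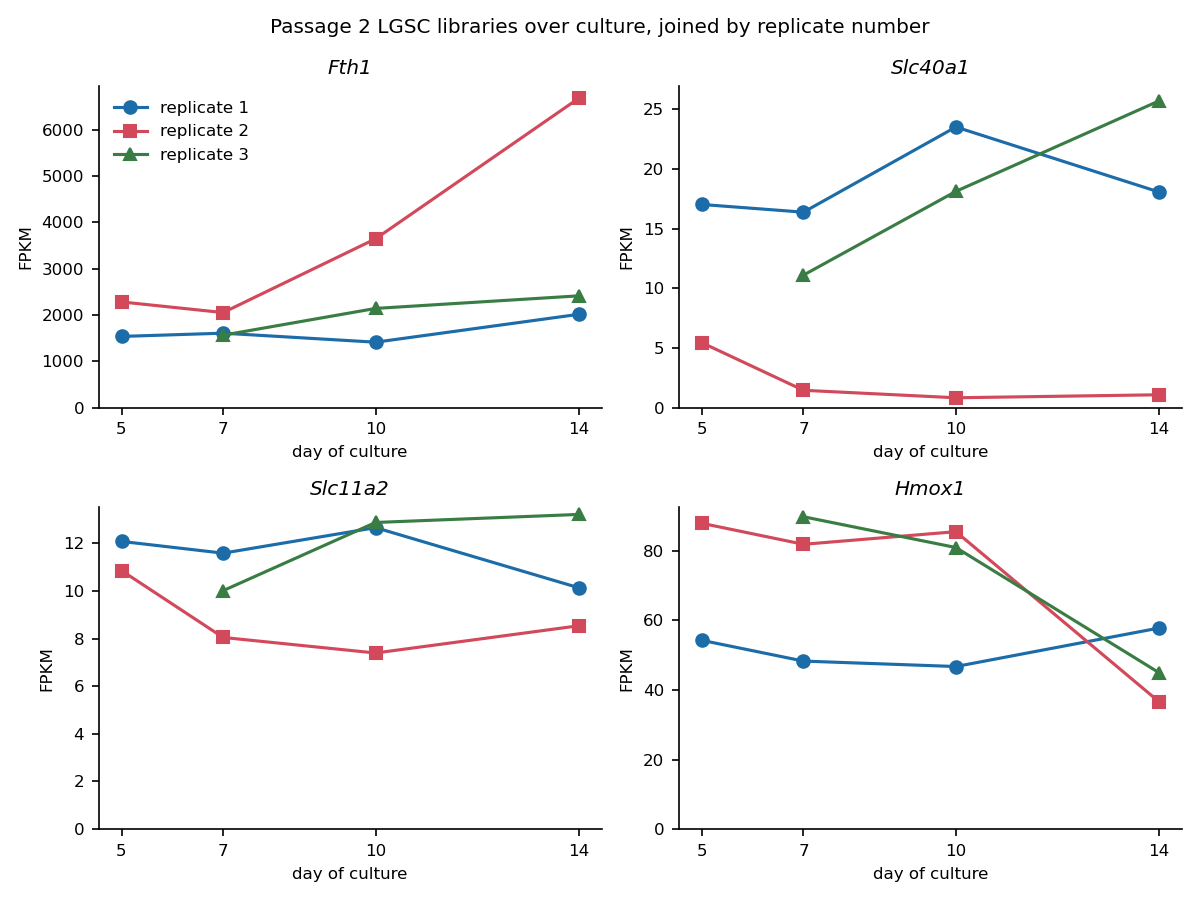
FPKM of the more abundant iron genes against day of culture (days), with 1 line per library number. Fth1 of the libraries numbered 2 runs from 2050 FPKM at day 7 to 6676 at day 14, while Slc40a1 of the same libraries stays between 0.822 and 5.44.

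The first comparison asked what prolonged culture does to these transcripts. Between day 7 and day 14, 0 of 15744 genes passed an adjusted p of 0.05 in limma on log2(FPKM + 1), a background of 0% called, and 1557 genes (9.89%) had an unadjusted p under 0.05. Tfrc, Ncoa4 and Trf were below the minimum mean of 0.5 FPKM and were not tested, and of the other genes 0 was called. Hmox1 had the largest difference among the tested genes, −0.62 ± 0.29 on the log2 scale (SE, adjusted p = 0.522 by limma). It was lower at day 14 in the libraries numbered 2 and 3, at 0.447 and 0.501 times the day 7 value, and at 1.2 times in number 1. Slc40a1 differed by 0.35 ± 1.16 (adjusted p = 0.934). Most of that error was the difference between library numbers, since with the number as a block it was 0.35 ± 0.30 (adjusted p = 0.624), still not called.

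Within each number, Fth1 at day 14 was 1.25, 3.26 and 1.54 times its day 7 value for libraries 1, 2 and 3, a mean log2 difference of 0.88 given as a description. Without day 14 library 2, the library that chose the set, Fth1 differed by 0.35 ± 0.16 (adjusted p = 0.489 by limma). That fit kept day 7 library 2, the highest of its day at 2050 FPKM, so the numbers were not balanced between the days. The slope over days 5, 7, 10 and 14 gave the same picture. It called 334 of 15584 genes (2.14%), or 783 with the library number as a block, and 0 of the members in either fit. The largest tested slope was that of Hmox1, −0.07 ± 0.03 log2 units per day (adjusted p = 0.3 by limma). That of Fth1 without day 14 library 2 was 0.04 ± 0.04 per day (adjusted p = 0.599 by limma). This Fth1 fit likewise kept the libraries numbered 2 of days 5, 7 and 10, the highest of their days.

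The second question was how the gland changes from embryo to adult, taken from 1 fit of all 9 gland libraries. At E17.5, 10039 of 18578 genes (54.0%) differed from adult LG, and 4 of the 9 iron genes did, which is near that background. Slc40a1 was higher at E17.5, by 0.92 ± 0.23 (adjusted p = 0.00886 by limma). Fth1 was lower by 1.13 ± 0.24 (log2 difference −1.13, adjusted p = 0.00426), Slc11a2 by 1.24 ± 0.22 (−1.24, adjusted p = 0.00137), and Tfrc by 0.90 ± 0.28 (−0.90, adjusted p = 0.025). For these 4 the groups did not overlap, which was so for 59.5% of all genes. In bulk tissue, fewer cells of a type and less RNA per cell cannot be told apart.

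At E19.5, 10077 genes (54.2%) differed from adult LG, and 5 of 9 iron genes did. The groups did not overlap for 58.8% of all genes and for 5 of the 9. Slc40a1 was higher by 1.52 ± 0.23 (adjusted p = 0.000674 by limma) and Hmox1 by 1.00 ± 0.34 (adjusted p = 0.0339). The log2 differences of the other 3 were −1.14 for Fth1 (adjusted p = 0.00409), −1.33 for Slc11a2 (adjusted p = 0.00103) and −1.04 for Tfrc (adjusted p = 0.0135). Hmox1 overlapped between the groups because adult library 3 was at 102 FPKM against 97.8 in the lowest E19.5 library. Its call was lost on leaving out any 1 of adult libraries 1 and 2 or of the E19.5 libraries, with adjusted p of 0.0508 to 0.104. Both contrasts share the adult libraries, so their similarity is not 2 separate observations.

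Adult library 3 decided the value of the light chain. For E17.5, Ftl1 differed by 0.67 (adjusted p = 0.175), which became 1.14 without that library (adjusted p = 0.00277). For E19.5 the values were 0.52 (adjusted p = 0.286) and 0.99 (adjusted p = 0.00565). Without it, Hmox1 was also higher at E17.5, by 0.92 (adjusted p = 0.00371). The fits without adult library 3 kept adult libraries 1 and 2, whose deposited values are high relative to their own reads. The Ftl1 values of these 2 libraries rest on 14 and 35 reads. The E17.5 call of Tfrc did not hold without adult library 1 or 2 or E17.5 library 2 or 3, with adjusted p of 0.0563 to 0.0861. Trf differed by −1.89 at E17.5 (adjusted p = 0.249), a value that rests on adult library 3.

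The scale of the adult libraries mattered as much. After scaling each library to its own reads, the median log2 difference of all genes moved from 0.053 to 0.513 at E17.5 and from 0.089 to 0.465 at E19.5, and the split of higher against lower calls moved from 5405 and 4634 to 8123 and 2319, and from 5637 and 4440 to 7680 and 2265. Fth1 was then at 788, 1171 and 3606 in adults against 1134 to 1424 at E17.5, the groups overlapped, and its differences were −0.22 (adjusted p = 0.698) and −0.35 (adjusted p = 0.538). The E17.5 differences of Slc11a2 and Tfrc were −0.45 (adjusted p = 0.0527) and −0.39 (adjusted p = 0.0965), while both calls at E19.5 held. Ireb2, at 0.19 on the deposited scale (adjusted p = 0.331), was called at E17.5 on this scale, at 0.65 (adjusted p = 0.0114). Ncoa4, at 0.32 on the deposited scale at E19.5 (adjusted p = 0.0585), was called there at 0.54 (adjusted p = 0.0091). Relative to the median on this scale, Ireb2 at E17.5 was at 0.13 and Ncoa4 at E19.5 at 0.07. The higher Slc40a1 of both embryonic ages was called under every alternative run. Relative to the median of all genes, the E17.5 difference of Fth1 was −1.18 on the deposited scale and −0.74 on the other, and that of Slc40a1 was 0.86 and 0.67.

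**Figure D3:**
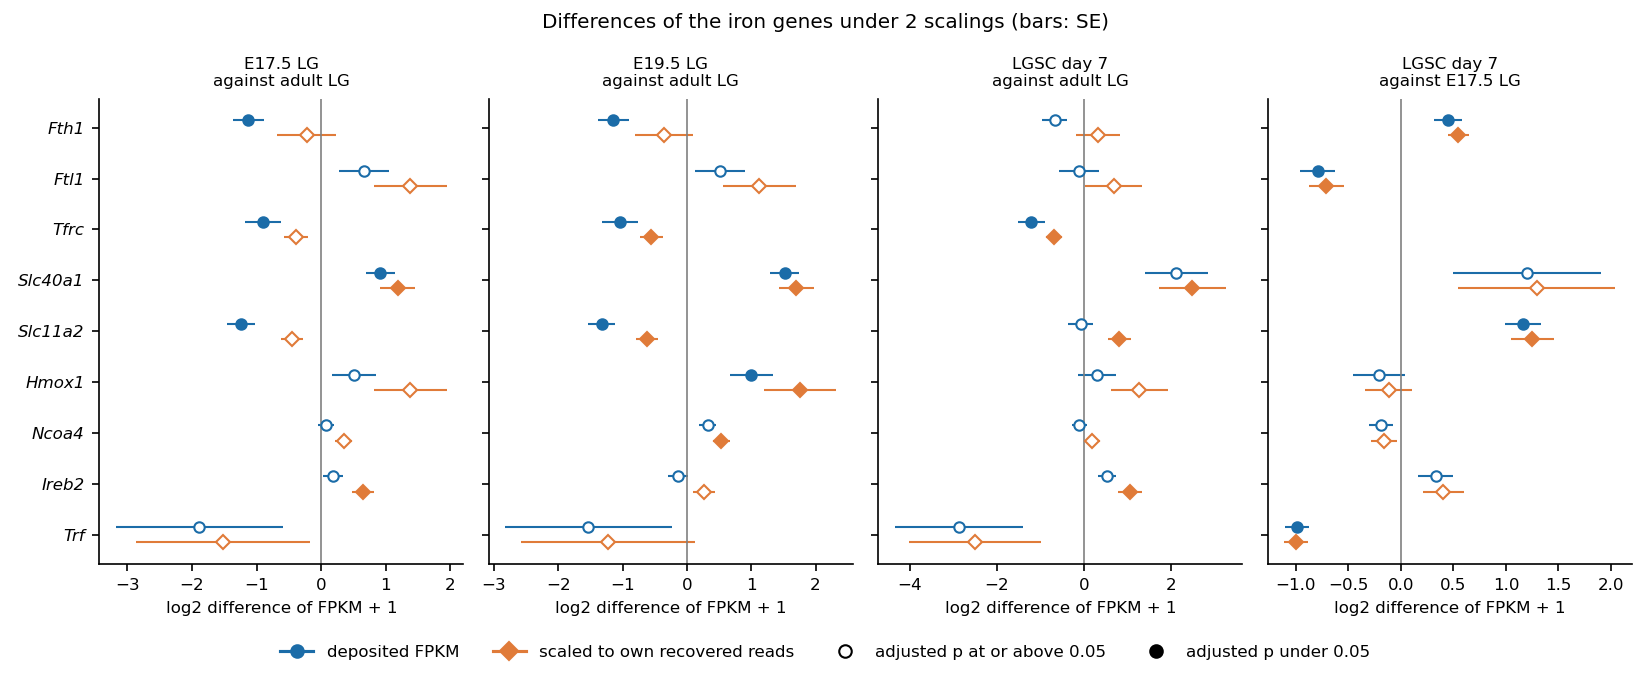
Log2 differences of the members (points, with SE) in the contrasts between gland and culture groups, on the deposited FPKM scale and after scaling each library to its own recovered reads. The Fth1 difference of E17.5 from adult moves from −1.13 to −0.22, while that of Slc40a1 stays above 0 in both.

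Between the embryonic ages, 323 of 18578 genes (1.74%) differed and 0 of the 9 iron genes. Slc40a1 came nearest, higher in all 3 E19.5 libraries than in any at E17.5, with a difference of 0.60 ± 0.23 (adjusted p = 0.248 by limma), while groups did not overlap for 35.1% of all genes. It passed the threshold when only these 6 libraries were fitted (adjusted p = 0.0384). Fth1 differed by −0.02 with an interval from −0.57 to 0.53.

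The cell makeup differed along the same contrasts. The 14 macrophage markers, from a cell type known for high ferroportin and heme oxygenase, summed to 256 to 594 FPKM in adult LG, 151 to 184 at E17.5, 293 to 358 at E19.5 and at most 0.431 in LGSCs, with 6 of the genes at a mean of 1 FPKM or more and Cd68 and Clec4f listed at 0. Erythroid markers summed to 4.32 to 5.38 in adult LG, 49.7 to 98.0 at E17.5 and 12.6 to 16.8 at E19.5. Among them Hba-a1 was at 0, and Hba-a2 was at 0 except at E19.5, where it reached 0.167 FPKM. Fibroblast markers summed to 177 to 347 in adults and to 4740 to 5720 in the embryonic glands. The macrophage genes did not move together. C1qa had a mean of 274 FPKM in adults, 50.2 for E17.5 and 140 for E19.5. Lyz2 had 158, 79.2 and 111, Csf1r had 3.82, 2.17 and 3.43 and Adgre1 had 14.3, 7.48 and 15.6, all lowest at E17.5 as C1qa was. Mrc1 had 3.34, 22.1 and 43.9 and Cd163 had 2.67, 2.95 and 9.88, and only these of the 6 had the order of Slc40a1. The part of these cell types in the embryonic differences was not tested.

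The last question set culture against gland. Day 7 LGSCs differed from adult LG in 6238 of 17698 genes (35.2%) and in 1 of 9 iron genes, Tfrc, which was lower in culture by 1.21 ± 0.31 (log2 difference −1.21, adjusted p = 0.0238 by limma). That call was lost without any 1 of the day 7 libraries or adult library 2, with adjusted p of 0.0639 to 0.0791. The day 7 values of Tfrc are 5 to 7 reads each. Slc40a1 was higher in all 3 day 7 libraries, as 52.4% of all genes also did not overlap, by 2.12 ± 0.73 (adjusted p = 0.0634), and by 2.97 without day 7 library 2 (adjusted p = 0.00552). Fth1 differed by −0.67 ± 0.29 (adjusted p = 0.11), or by 0.32 (adjusted p = 0.623) on the scale of the libraries' own reads. On that scale 4 of the 9 genes were called, the median of all genes moved from −0.082 to 0.448, and the split of higher against lower calls of all genes moved from 2507 and 3731 to 4965 and 2046. Slc11a2 was then higher in culture, by 0.80 (adjusted p = 0.0493), where the deposited scale gave −0.08.

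Against E17.5 LG, 8286 of 17391 genes (47.6%) differed from day 7 LGSCs, and 4 of the 8 iron genes tested did. The libraries did not overlap for 59.6% of all genes and for 5 of the 8. Tfrc was below the minimum mean. Slc11a2 was higher in culture by 1.16 ± 0.17 (adjusted p = 0.00211 by limma), which held under every alternative run, and Fth1 by 0.45 ± 0.13 (adjusted p = 0.0338). Ftl1 was lower by 0.79 ± 0.17 (log2 difference −0.79, adjusted p = 0.00949) and Trf by 0.99 ± 0.11 (−0.99, adjusted p = 0.000697), with Trf listed at 0 in 2 of the 3 day 7 libraries. The heavy and light chains thus moved apart between these groups, within the limit on the Ftl1 level given above. The Fth1 call was lost without day 7 library 1 or E17.5 library 2 or 3, with adjusted p of 0.0502 to 0.108. Slc40a1 differed by 1.20 (adjusted p = 0.209), and by 2.05 (adjusted p = 0.000566) without day 7 library 2.

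Other genes of the pathway were read from 6 lists with 74 genes, of which 71 were listed. In E17.5 against adult LG, 49 were tested, 9 were higher and 15 lower, a smaller share than the 54.0% called among all genes, with a median of −0.13 beside 0.053, but 23 higher and 7 lower on the scale of the libraries' own reads. Among uptake genes, the ferritin receptor Scara5 was higher at E17.5 (57.1 against 12.9 FPKM, log2 difference 2.20) and so was the ferric reductase Cybrd1 (2.08). The iron oxidase Heph, which works with ferroportin, was at 25.5 against 1.62 FPKM (3.39, adjusted p = 6.83e-06 by limma). In heme metabolism, Alas1, the first enzyme of heme synthesis, was lower (1.59 against 49.1 FPKM, −4.27), as was the hemoglobin scavenger Hp (3.99 against 2381 FPKM, −8.69). Of the 15 tested mitochondrial and iron-sulfur cluster genes, 6 were lower and 0 higher, among them Fdx1 (−1.80) and the cluster scaffold Iscu (−1.45), but on the scale of own reads 9 were higher and 2 lower, with a median of 0.504 beside 0.513 for all genes. Aco1, which encodes iron regulatory protein 1, was higher by 0.60 (adjusted p = 0.00856).

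The E19.5 contrast had 11 genes higher and 13 lower of 49, beside 54.2% of all genes called (22 and 7 on the other scale). Heph (3.50), Scara5 (1.88) and Alas1 (−3.49) were again called, in a contrast that shares the adult libraries. From E17.5 to E19.5, 1 of the 49 was called, beside 1.74% of all genes, and 0 on the scale of own reads. The 1 gene was Alas1, which was higher by 0.79 (adjusted p = 0.0288 by limma) on the deposited scale. Over the days of culture 1 of 42 genes was higher and 2 lower, beside 2.14% of all genes, and 1 and 0 on the scale of own reads. The gene with a rising level was Ltf, the iron-binding protein of tears, with a slope of 0.19 log2 units per day (adjusted p = 0.00906 by limma).

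In day 7 LGSCs, 5 of 47 genes were higher and 13 lower than in adult LG (14 and 5 on the other scale), and 10 were higher and 12 lower than at E17.5 (11 and 11), beside 35.2% and 47.6% of all genes called. Scara5 was at 0.0839 FPKM in day 7 LGSCs against 57.1 at E17.5 (log2 difference −5.73), and Heph at 0.0344 against 25.5 (−4.68). The metalloreductases Steap1 and Steap2 were higher in culture than in adult LG, by 2.48 and 1.91, and Steap4 was lower (−2.54). Hmox1, Fth1 and Slc40a1 are known targets of the stress regulator NRF2, and of 13 other NRF2 target genes tested against E17.5, 11 were higher in day 7 LGSCs and 0 lower, with a median of 1.57 beside −0.099 for all genes, of which 18.1% were higher. The fibroblast markers summed to 0.573 to 0.821 FPKM in day 7 LGSCs against 4750 to 5470 at E17.5, and their part in this was not tested. The 11 genes included Srxn1 (2.65), Nqo1 (2.26) and the glutathione enzyme gene Gclm (1.57), and the count was the same on the scale of own reads and without day 7 library 2. Against adult LG the counts were 5 higher and 2 lower, beside 14.2% of all genes higher and 21.1% lower. The median was 0.828 beside −0.082 for all genes. On the scale of own reads the counts were 9 and 0, with a median of 1.824 beside 0.448. The calls of all genes also moved toward higher on that scale. Hmox1 itself differed by −0.21 (adjusted p = 0.519) from E17.5.

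The genes most like each member were ranked by the Pearson correlation of log2(FPKM + 1) over the 20 P2 and tissue libraries, which share groups, scale and depth. The closest to Fth1 were Kcnh1 (0.902), 2 unannotated loci assembled in the study (0.888 and 0.873), Muc20 (0.862) and Slc5a1 (0.861). Slc11a2 was closest to Dglucy (0.957), Slc40a1 to an unannotated locus (0.936) and Tmem98 (0.932), and Trf to the milk casein gene Csn1s2a (0.929). The Trf value rests largely on adult library 3, where Trf was at 94.9 FPKM. Csn1s2a was among the top genes by reads only in that library. Over the 11 LGSC libraries alone, the correlation was 0.473 for Trf with Csn1s2a and 0.472 for Slc11a2 with Dglucy. It was 0.904 for Fth1 with Kcnh1 and 0.958 for Slc40a1 with Tmem98. For Hmox1 the closest were Cldn15 (0.841) and Jcad (0.82), and Jcad was also the closest to Ftl1 (0.865). Ireb2 was closest to an unannotated locus (0.846), and Tfrc and Ncoa4, with a mean under 1 FPKM, were not ranked.

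**Figure D4:**
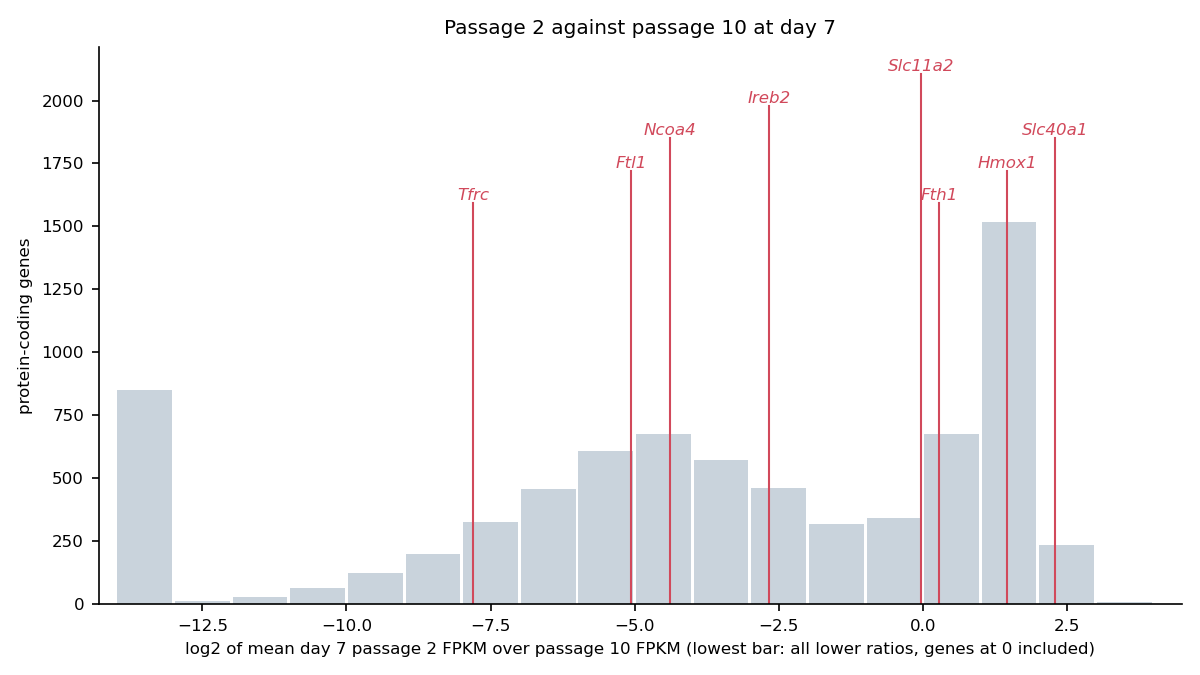
Distribution over 7472 protein-coding genes with at least 5 FPKM in the P10 library of the log2 ratio of mean P2 day 7 FPKM to P10 FPKM, with the iron genes marked. The genes fall into a lower and an upper range, with genes at 0 in the lowest bar, Fth1 and Slc11a2 near a ratio of 1, and Ireb2, Ncoa4, Ftl1 and Tfrc far below it. Slc40a1 is marked although its P10 value of 1.95 FPKM is under the limit.

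The P10 day 7 library, a single library with no replicate, placed 4 of the iron genes far from their P2 values. P2 day 7 LGSCs were at 1.22 times its value for Fth1, 0.976 for Slc11a2, 2.76 for Hmox1 and 4.94 for Slc40a1. They were at 0.158 times for Ireb2, 0.0476 for Ncoa4, 0.03 for Ftl1 and 0.0045 for Tfrc. Among 7472 protein-coding genes with at least 5 FPKM in P10, the median ratio was 0.101, 50.0% were under 0.1 and 13.6% were within 2-fold. Ncoa4, Ftl1 and Tfrc were thus among the 50.0% and Ireb2 was above the median ratio. The fullest bin of these ratios, with 1516 genes, was a log2 ratio of 1 to 2. Hmox1 lay in that bin, and Fth1 and Slc11a2 lay below it. Slc40a1, at 1.95 FPKM in P10, was under the limit of 5 FPKM and is not among the 7472. In all 20 P2 and tissue libraries, 40.9% of the 7472 were under 0.1 of the P10 value. Whether passage or processing sets these ratios cannot be told apart with 1 library.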

How the data were processed

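Libraries were prepared from polyA RNA with a NEBNext Ultra kit and sequenced as 150-bp pairs. The authors deposited FPKM values per gene, and their processing notes name CASAVA 1.8, HISAT2 2.0.5, featureCounts 1.5.0-p3 and build NCBIM37, while the step that made FPKM is not given in the sources used here. The 20 P2 and tissue tables list 63862 genes each, and the P10 library lists 52747. Of the 24 samples, 21 have a table, and the third day 5, the P6 and the P20 libraries were not analysed here. Gene names, positions and UTR sequences came from GENCODE M21 (GRCm38).

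FPKM was tested as log2(FPKM + 1) with limma 3.58.1 (R 4.3.3, lmFit and eBayes with trend), leaving out genes whose mean in the libraries fitted was under 0.5 FPKM. P-values were adjusted over all genes by Benjamini-Hochberg at 0.05. Fold changes on this scale understate those of low genes. The study tested counts with DESeq2, which these values do not allow as the main test. Reads were recovered from the steps of the FPKM values, of which 92.6% to 93.6% came out whole within 0.01 for values up to 1000 reads. They served for depth, for rescaling and for limma-voom as an alternative. The precision follows the depth, so genes under about 40 reads, such as Tfrc and Ncoa4, carry the largest counting error. Scripts were tested on simulated data. Values at 0 are given per library.

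Replicate numbers pair the LGSC libraries: deviations of same-numbered libraries from their group means correlated at 0.26 to 0.719 over 15 pairs (mean 0.457), and those of different numbers at a mean of −0.217. Tissue libraries shared only a number (mean −0.009 over 9 pairs). The numbered LGSC fits were repeated with the number as a block. The members and gene lists were chosen with earlier results of these data known. Named genes are the 9 members, genes of the 6 iron lists and the NRF2 lists that passed 0.05 or stand for their list, and the genes most correlated with each member. Alternatives changed the pseudocount to 0.1, the filter, the scaling, the test, the block, the libraries in the fit and each library in turn. The fits of the LGSC libraries numbered 1 and 3 alone were chosen after seeing the data. Results for some genes of the lists are not reported here.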

Additional observations from a re-analysis of the deposited data

Results flagged for a closer look

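The P10 day 7 LGSC library took part in no comparison, and 8 of the 9 iron genes had a value in it above the level that 3 reads give (0.0133 to 0.0941 FPKM). These were Fth1 at 1428 FPKM, Ftl1 at 268, Hmox1 at 26.5, Tfrc at 25.2, Ireb2 at 16.0, Slc11a2 at 10.1, Ncoa4 at 10.0 and Slc40a1 at 1.95. Trf was listed at 0, where 3 reads would give 0.038 FPKM. This is 1 library, so none of these values has a spread.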

How the results depend on the processing

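Depth limits Tfrc, Ncoa4 and Trf most, since their values rest on few reads, and no alternative repairs a gene listed at 0. The count of genes with a slope over culture days was 334, and it was 82 without a filter, 0 with days 7, 10 and 14 only, 783 with the replicate block, 989 with limma-voom on recovered reads and the block, and 11 to 384 on leaving out a library. The count between E19.5 and E17.5 was 323, and it was 162 with a pseudocount of 0.1, 177 on the scale of own reads, 58 with limma-voom, 100 with the replicate block, 5 with limma-voom and the block, 2144 with only the 6 libraries compared (where 1 member was called), and 50 to 197 on leaving out a library. The block changed no call of a member in the fits on log2(FPKM + 1). At E17.5 against adult, 4 members were called (1 higher, 3 lower), and 2 on the scale of own reads (2 higher, 0 lower), 5 with limma-voom (5 higher, 0 lower), 3 with voom and the block (3 higher, 0 lower) and 3 to 6 on leaving out a library. For day 7 against adult LG, 1 member was called, and it was 4 on the scale of own reads, 3 with limma-voom, 4 with limma-voom and the block, 2 with all 20 libraries in the fit and 0 to 2 on leaving out a library (3770 to 8135 genes overall). For day 7 against E17.5, 4 members were called, and 1 with all 20 libraries and 2 to 6 on leaving out a library. In the contrasts with adult LG, the calls of all genes moved toward higher on the scale of own reads, as given above. These member counts stand without the share of all genes called under each setting, so they are no result about the iron genes. The split of higher against lower calls also moved with the scale of own reads for the slope, from 101 and 233 to 114 and 173, and between the embryonic ages, from 207 and 116 to 88 and 89. Differences that changed sign were mostly small. In day 14 against day 7, leaving out a library gave Ftl1 −0.057 to 0.433, Slc11a2 −0.0656 to 0.222 and Slc40a1 −0.51 to 1.49. The slope of Slc40a1 was −0.002 with a pseudocount of 0.1, −0.0196 with the block, and −0.0629 to 0.131 on leaving out a library. The slope of Ftl1 was 0.0147 on the scale of own reads, 0.0168 with limma-voom, 0.0077 with voom and the block, 0.0219 with days 7, 10 and 14 only, 0.0679 with numbers 1 and 3 only, and −0.0298 to 0.0267 on leaving out a library. The slope of Slc11a2 was 0.0153, 0.0166, 0.0087, 0.0117 and 0.0047 in those 5 settings, and −0.0197 to 0.0106 on leaving out a library, and that of Ireb2 was 0.002 with limma-voom. In E19.5 against adult, Ireb2 was 0.26 on the scale of own reads, 0.54 with limma-voom and 0.53 with voom and the block, and Trf was −2.75 to 0.31 on leaving out a library, the upper value without adult library 3. In E19.5 against E17.5, leaving out a library gave Fth1 −0.103 to 0.0628 and Tfrc −0.275 to 0.0155. In day 7 against adult, the scale of own reads, limma-voom, and voom with the block gave Fth1 0.32, 0.26 and 0.24, Ftl1 0.67, 0.82 and 0.61, Slc11a2 0.80, 0.91 and 0.91, and Ncoa4 0.19, 0.63 and 0.63. Leaving out a library there gave Slc11a2 −0.323 to 0.0848, Hmox1 −0.0086 to 0.706 and Ftl1 −0.56 to 0.35. In day 7 against E17.5, it gave Hmox1 −0.379 to 0.0613. The cause of these shifts was not tested.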
